A study of Mus musculus with 6 samples.

Results

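Chemokines and their receptors were examined in the transcriptome of lung ECs from AngII-infused WT and leene-KO mice. The genes were chosen by symbol, as every mouse Ccl, Cxcl, Ccr and Cxcr gene plus Cx3cl1, Cx3cr1, Xcl1 and Xcr1, and were kept where they had at least 10 counts over the 6 libraries together. Of 47729 counted genes, 56 carried such a symbol and 49 were kept, of which 33 encode ligands and 16 encode receptors. The other 7 stayed under 10 counts (Ccl1, Ccl26, Cxcl11, Ccr8, Ccr10, Ccl21b and Ccl27b). Of these, Ccl26, Ccl21b and Ccl27b had 0 counts in all libraries. For Ccl26, this allows a level of up to 0.0174 CPM before scaling (CPM, counts per 1000000 counted reads, here 3 counts over the 6 libraries, counting error only). Only uniquely aligned reads were counted, so a 0 sets no such limit for a gene with near-identical copies, such as Ccl21b.

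The comparison was between 3 WT and 3 KO libraries. KO mice lack, in all cells and on the C57BL6 background, the mouse region that corresponds to the human LEENE locus, a long noncoding RNA gene. The deleted region holds 3 noncoding genes. By qPCR in heart and aorta, the study reports a strong decrease of the putative leene homolog in KO, and no significant difference for the others. The annotation used for counting does not list these genes, so in these libraries the genotypes are those of the labels. Both groups were 14-week-old male mice on normal chow that had received angiotensin II (AngII) by osmotic pump for 2 weeks at 1000 ng/kg/min, and no library came from mice without AngII, so the values describe WT and KO under AngII only. The labels describe cells enriched by CD31 and pooled from 3 mice per group, whereas the study's methods describe magnetic sorting by CD144 and its legends 3 mice per group. Here n counts libraries, and p-values measure the spread between libraries, which may be technical.

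Chemokines are small secreted or membrane-bound proteins that guide leukocytes along gradients and make them stick to the vessel wall. Homeostatic chemokines such as CXCL12, CXCL13, CCL19 and CCL21 place cells in marrow, lymph nodes and lymphoid follicles, whereas inflammatory chemokines are induced on demand and recruit neutrophils, monocytes and effector T cells. Most receptors of the family are carried by leukocytes. ECs make ligands, hold them at their surface, transport them, and carry scavenger receptors that take them up.

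Libraries held 24464324 to 35184063 counts, of which the 49 genes took 0.109% to 0.544%. Mitochondrially encoded genes took 37.4% to 54.5% of the counts. That share was highest in WT replicate 3, which also held the fewest counts. Pecam1, Cdh5 and the other 13 endothelial markers were present in every library, with a summed level of 2345 to 4191 CPM in WT and 2656 to 4277 CPM in KO (CPM after TMM scaling). RNA of other cells was present as well. The summed level of alveolar type II markers was 5489, 51060 and 15790 CPM in the WT libraries, in the order of their numbers, and 39620 to 49010 CPM in KO, so that WT replicates 1 and 3 stood apart from WT replicate 2 and from the KO libraries. WT replicate 2 also decided many counts, since 791 genes passed the test described below when it was left out, against 16 with all 6 libraries and 0 without each of the KO libraries. In such bulk libraries, fewer cells of a type and less RNA per cell cannot be told apart.

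Of the 49 genes, 40 had enough counts to be tested (14 receptors and 26 ligands). The low-count filter can be passed through 1 group alone, and the counts over tested genes are given as a description. No tested member passed edgeR's quasi-likelihood test at a Benjamini-Hochberg adjusted p under 0.05, against 0.109% of all 14625 genes tested. DESeq2, the tool of the study, called 2 members higher in KO, Ccr7 and Cxcr5 (0.569% of its 15470 genes were called higher), and 0 lower (0.64% of genes), and limma-voom called 0. At an unadjusted p under 0.05 in the quasi-likelihood test, 8 members were higher in KO and 1 was lower, where 5.62% and 4.68% of all genes tested were. The 8 were 6 of the 14 receptors (Ccr7, Ccr2, Cxcr5, Cx3cr1, Cxcr4 and Xcr1) and 2 of the 26 ligands (Cx3cl1 and Ccl28), and the 1 lower was the ligand Cxcl5.

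Receptors and ligands were then described apart. The log2 fold change from WT to KO (log2FC, from the quasi-likelihood fit, given below ± its standard error, SE) had a median of 0.74 over the tested receptors and of -0.0028 over the tested ligands, beside 0.03 over all genes tested. Of the receptors, 12 of 14 had a positive value, and of the ligands 12 of 26. All 3 KO libraries lay above all 3 WT libraries for 8 tested members (8.59% of all genes tested), which were the same 6 receptors with Cx3cl1 and Cxcl14, and below them for Cxcl5 alone (9.2% of all genes tested). Among the 9 members that could not be tested, Ccr3 was above and Ccl12 below WT in every KO library, on 43 and 29 counts in all.

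**Figure D1:**
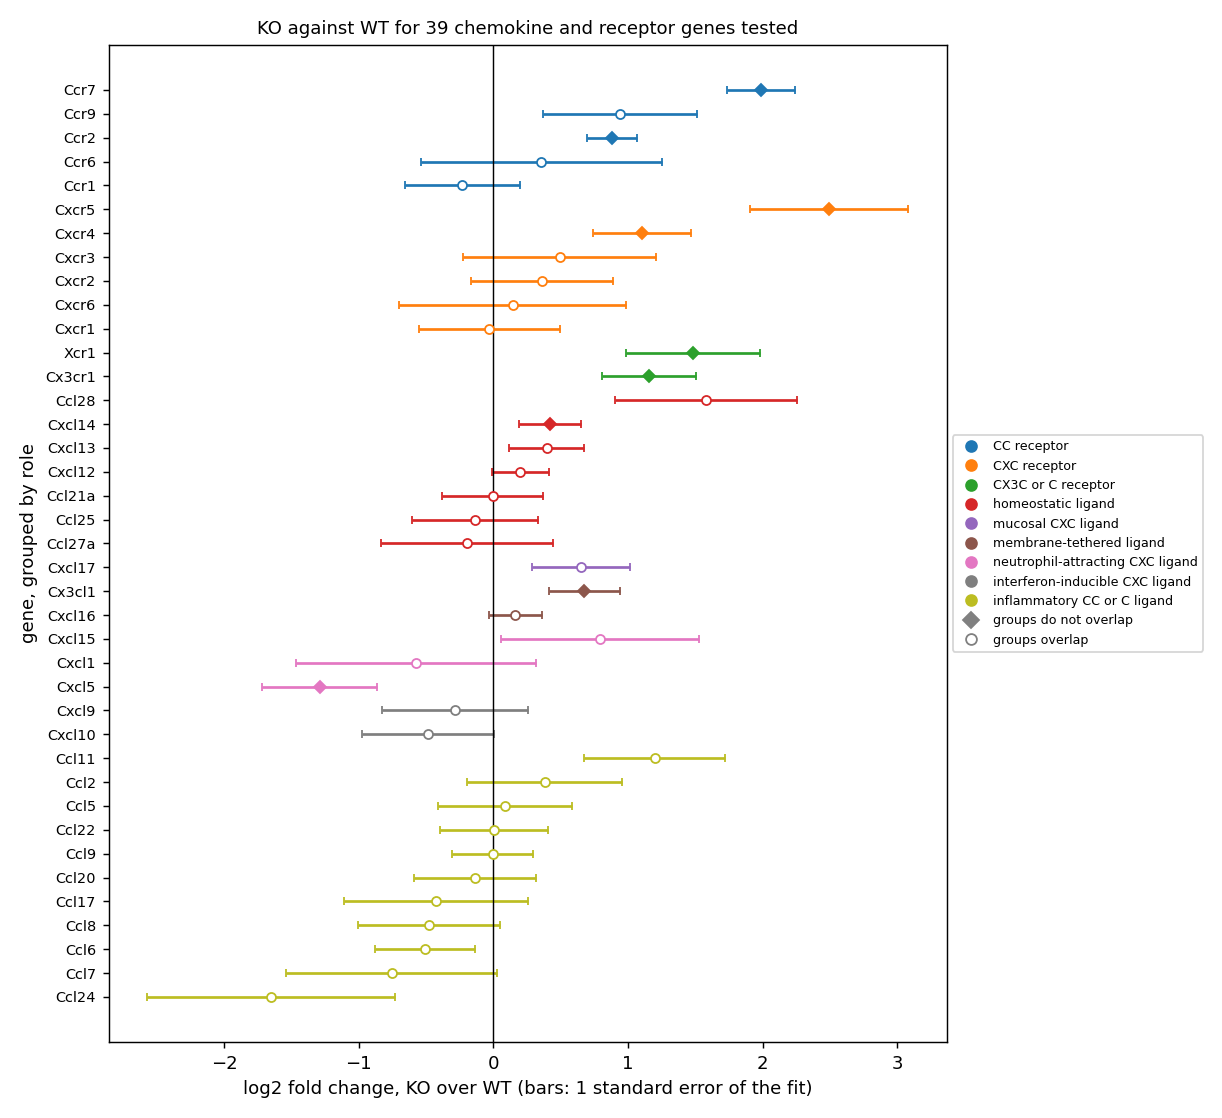
Log2FC, KO over WT, of 39 of the 40 chemokine and receptor genes tested (horizontal axis), grouped by role (colours, vertical axis), with bars of 1 standard error of the fit and filled diamonds where the groups do not overlap. Receptors fill the upper rows with 11 of 13 values above 0, up to 2.49 for Cxcr5, whereas the ligands lie on both sides of 0, from -1.65 for Ccl24 to 1.58 for Ccl28.

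Ccr7, the receptor that brings naive T cells, B cells and mature dendritic cells into lymph nodes, lies on chromosome 11 from 99144196 to 99155077 on the minus strand (GRCm38). In replicates 1, 2 and 3, the order used for all values below, its level was 1.15, 1.59 and 1.12 CPM in WT and 5.80, 4.38 and 5.24 CPM in KO. The groups were far apart, with the lowest KO library above 4 CPM and the highest WT library below 2 CPM, and the KO mean was 3.97 times the WT mean in the fit. The log2FC was 1.99 ± 0.25 (SE), with an adjusted p of 0.0507 in edgeR's quasi-likelihood test, just above the threshold, and of 2.66e-07 in DESeq2. It was 1.88 to 2.13 when single libraries were left out. Ccr7 then passed the quasi-likelihood test only without WT replicate 2 (adjusted p = 0.0213). Without each other library, the adjusted p in that test was 0.0860 to 0.329. The study had already singled out Ccr7 and Cxcr5 from these libraries, so the size of their difference is not independent evidence.

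The ligands of Ccr7 overlapped between the groups. Ccl21a, which encodes a form of CCL21, was at 5.85, 9.90 and 16.8 CPM in WT and 13.0, 7.69 and 11.6 CPM in KO. The groups overlapped over nearly their whole range, and the log2FC was -0.00 ± 0.38 (SE, adjusted p = 0.999 in the quasi-likelihood test), with a sign that turned when WT replicate 3 was left out (0.44). Ccl19, made by lymphoid stroma and mature dendritic cells, reached 0.122, 0.382 and 0.328 CPM in WT and 0.301, 0.221 and 0.448 CPM in KO, on 51 counts in all, and was not tested. Mouse Ccl21a, Ccl21b and Ccl19 have near-identical copies whose shared reads were not counted, so these levels are uncertain. Lymphatic EC markers (Prox1, Lyve1, Flt4, Pdpn, Mmrn1 and Reln) summed to 217 to 440 CPM in WT and 206 to 271 CPM in KO. Of these 6 markers, 0 had an unadjusted p under 0.05 in the quasi-likelihood test or an adjusted p under 0.05 in DESeq2.

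Ackr4, an atypical receptor that takes up CCL19, CCL21 and CCL25 without signalling migration, was at 1.004, 1.09 and 2.67 CPM in WT and 6.79, 3.50 and 6.11 CPM in KO. Like Ccr7 it was higher in every KO library. Its log2FC was 1.82 ± 0.44 (SE), with an adjusted p of 0.283 in the quasi-likelihood test and 0.0123 in DESeq2. CCL25 itself, a gut and thymus chemokine, was encoded by a transcript at 0.843 to 2.38 CPM in WT and 0.903 to 1.73 CPM in KO, and its other receptor Ccr9 was at 0.264 to 0.656 CPM and 0.478 to 1.16 CPM, with overlapping groups for both.

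Cxcr5, which leads B cells and follicular helper T cells into lymphoid follicles, lies on chromosome 9 from 44511788 to 44556391 on the minus strand. It was at 0.367, 0.763 and 2.34 CPM in WT and 7.22, 4.71 and 6.55 CPM in KO. No KO library overlapped WT, although WT replicate 3 held more than 3 times the level of WT replicate 2. The log2FC of 2.49 ± 0.59 (SE) was the highest of the 40 members tested and had an adjusted p of 0.274 in the quasi-likelihood test and 0.00231 in DESeq2. Without WT replicate 3 it was 3.44, and without WT replicate 1 it was 2.03. Its ligand Cxcl13, the follicular B cell attractant, was at 4.28, 4.73 and 4.50 CPM in WT and 4.99, 8.57 and 4.21 CPM in KO. Cxcl13 was high in KO replicate 2 alone, the groups overlapped, and the log2FC of 0.40 ± 0.28 (SE, adjusted p = 0.631 in the quasi-likelihood test) became 0.0028 without that library.

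**Figure D2:**
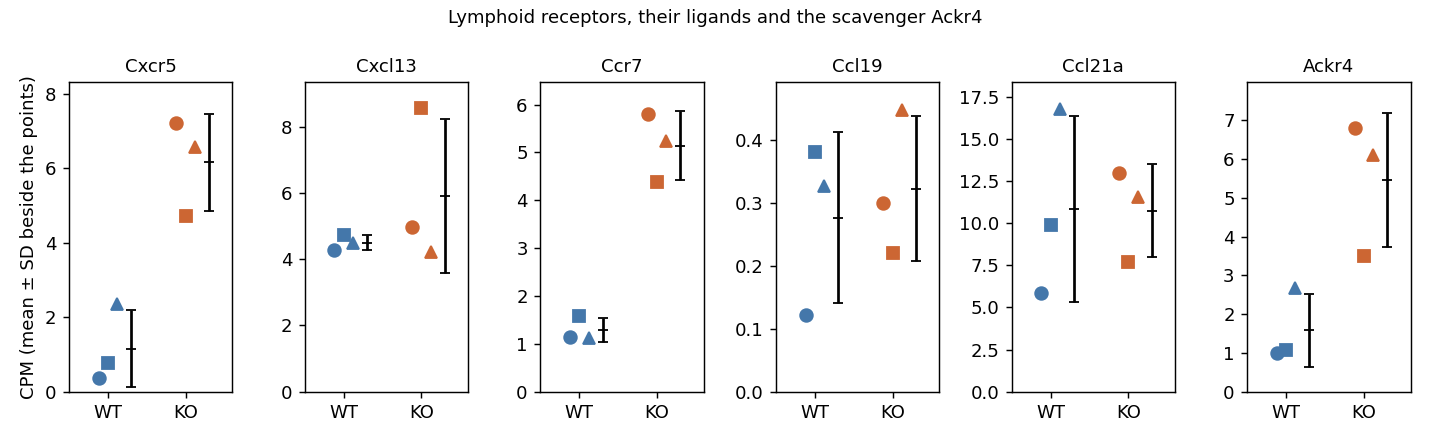
CPM (vertical axes) of the receptors Cxcr5 and Ccr7, their ligands Cxcl13, Ccl19 and Ccl21a, and the scavenger Ackr4 in WT (blue) and KO (orange) libraries, with circles, squares and triangles for replicates 1, 2 and 3 and the mean with SD beside them. The receptors and Ackr4 are higher in all 3 KO libraries, whereas the 3 ligands overlap between the groups.

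Markers of the cells that carry these receptors were set beside them. Of 19 B cell markers, 16 had an unadjusted p under 0.05 and 3 passed the quasi-likelihood test at an adjusted p under 0.05 (Ms4a1, Fcrla and Cd79a), all higher in KO. Their summed level was 167, 302 and 250.8 CPM in WT and 626, 600 and 513 CPM in KO, the median log2FC was 1.67, and none of the defining markers was at 0. Of 15 tested T cell markers out of 18, 6 had an unadjusted p under 0.05, all higher in KO (Cd3d, Cd3e, Cd247, Cd4, Cd8a and Cd27), with a median of 0.66, while the summed level overlapped at 36.0 to 42.6 CPM in WT and 35.4 to 52.9 CPM in KO. Tcf7, a T cell transcription factor, gave much of that sum, at 17.4 to 21.7 CPM in WT and 12.5 to 19.8 CPM in KO. Of 7 tested dendritic cell markers, 0 were higher at an unadjusted p under 0.05 and 1 was lower, Fscn1, an actin-bundling gene of mature dendritic cells and other cell types.

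The levels of both receptors were also taken relative to these markers. Cxcr5 per B cell marker RNA differed by 1.49 on the log2 scale, KO minus WT, with WT libraries at -8.83, -8.63 and -6.74 and KO libraries at -6.44, -6.99 and -6.29. WT replicate 3 lay within the KO range, and the exact two-sided permutation test gave p = 0.2 (0.2 adjusted over the 2 ratios). Ccr7 per T cell marker RNA differed by 1.80, with WT libraries at -4.97, -4.51 and -5.24 and KO libraries at -3.19, -3.02 and -3.12, and the exact permutation test gave p = 0.1, the smallest that 3 against 3 libraries allow (0.2 adjusted). B cells and mature dendritic cells carry Ccr7 as well, and Ccr7 was not set against their markers. The ratio to T cell markers thus does not account for all cells that carry it. The part of B and T cell RNA in the levels of Cxcr5 and Ccr7 was not tested beyond these ratios.

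**Figure D3:**
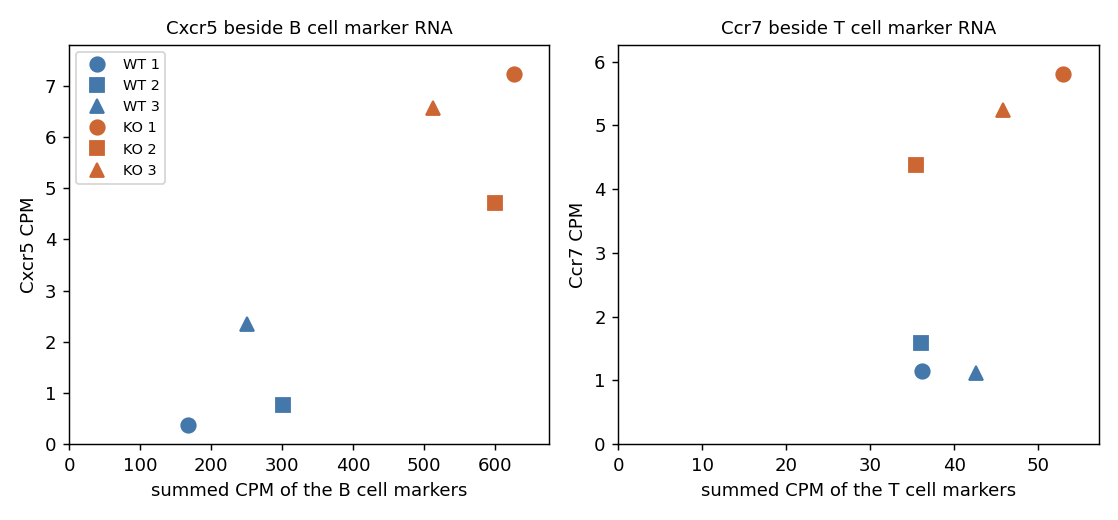
Cxcr5 CPM against the summed CPM of 19 B cell markers (left) and Ccr7 CPM against the summed CPM of 18 T cell markers (right) in each WT (blue) and KO (orange) library, with circles, squares and triangles for replicates 1, 2 and 3. Both Cxcr5 and the B cell markers separate the groups, whereas Ccr7 separates them while the T cell marker sum, much of it from Tcf7, overlaps. Of the 15 T cell markers tested singly, 6 were above WT in every KO library and 0 below.

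Cxcr4 was the most abundant receptor per transcript length, at a mean of 9.91 RPKM in WT and 21.3 RPKM in KO (RPKM, CPM per kilobase of exon), and is carried by ECs as well as by most leukocytes. It was at 8.15, 22.5 and 23.1 CPM in WT and 43.4, 32.3 and 39.6 CPM in KO. WT replicate 1 was the lowest library by far, and the KO libraries lay above all WT libraries. The log2FC was 1.10 ± 0.36 (SE, adjusted p = 0.388 in the quasi-likelihood test), and 0.75 without WT replicate 1. Cxcl12, its ligand and a product of ECs and stroma, was at 94.3, 103 and 115 CPM in WT and 145, 85.7 and 129 CPM in KO, with overlapping groups and a log2FC of 0.20 ± 0.21 (SE) that was 0.018 without KO replicate 1 and 0.37 without KO replicate 2. Ackr3, the scavenger of CXCL12, was at 21.9 to 39.7 CPM in WT and 21.5 to 32.5 CPM in KO.

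Of the known pairs of receptor and ligand, fractalkine and its receptor was the only one in which both members were higher in all KO libraries. Cx3cl1 encodes fractalkine, a membrane-tethered chemokine that inflamed endothelium uses to capture CX3CR1-bearing monocytes and lymphocytes. It was at 32.2, 71.7 and 53.2 CPM in WT and 86.1, 87.9 and 77.2 CPM in KO. WT replicate 2 came within 6 CPM of the lowest KO library and WT replicate 1 was far below. Within each group the libraries ranked as in the alveolar type II marker sum. WT replicate 2, the highest library in that sum, was below all KO libraries here. The part of alveolar type II RNA in the level of Cx3cl1 was not tested. The log2FC was 0.68 ± 0.27 (SE, adjusted p = 0.468 in the quasi-likelihood test), 0.42 without WT replicate 1 and 0.94 without WT replicate 2 (adjusted p = 0.0496). Without each other library, the adjusted p of Cx3cl1 in that test was 0.553 to 0.787.

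Cx3cr1, the receptor of fractalkine on patrolling monocytes, macrophages and natural killer cells, was found at 1.47, 3.49 and 1.73 CPM in WT and 5.50, 4.23 and 5.28 CPM in KO. Again WT replicate 2 was the WT library nearest to KO. The log2FC was 1.16 ± 0.35 (SE, adjusted p = 0.365 in the quasi-likelihood test) and 1.61 without WT replicate 2 (adjusted p = 0.0244). Ccr2, the receptor of inflammatory monocytes for CCL2, had the smallest standard error of the 40 members tested, at 2.91, 3.32 and 2.90 CPM in WT and 5.03, 5.96 and 5.86 CPM in KO. Each KO library was clear of WT, and the log2FC was 0.88 ± 0.19 (SE), with an adjusted p of 0.241 in the quasi-likelihood test and 0.0584 in DESeq2. The CCR2 ligands were low. Ccl2 was at 0.318 to 0.515 CPM in WT and 0.276 to 0.903 CPM in KO, Ccl7 at 0.220 to 0.998 CPM and 0.103 to 0.645 CPM, and Ccl12, on 29 counts, at 0.171 to 0.375 CPM and 0 to 0.138 CPM.

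None of 16 markers of monocytes and macrophages separated the groups as Ccr2 and Cx3cr1 did. By the quasi-likelihood test, 0 of 16 markers had an unadjusted p under 0.05, and by DESeq2 0 had an adjusted p under 0.05. Their summed level was 156 to 422 CPM in WT and 228 to 500 CPM in KO, and the median log2FC was 0.22. Of 10 natural killer cell markers only Klrd1 and Gzma had enough counts to be tested, and the sum was 1.71 to 2.44 CPM in WT and 1.73 to 4.17 CPM in KO.

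Xcr1, which marks cross-presenting dendritic cells, was found at 0.171, 0.411 and 0.421 CPM in WT and 0.946, 1.03 and 0.793 CPM in KO, on 7 to 28 counts per library. KO exceeded WT in every library, with a log2FC of 1.49 ± 0.50 (SE, adjusted p = 0.398 in the quasi-likelihood test). Clec9a and Batf3, further genes of these dendritic cells, were too low to be tested, at 0.0294 to 0.490 CPM and 0.0937 to 0.910 CPM in WT and at 0.184 to 0.690 CPM and 0.0690 to 0.387 CPM in KO. Xcl1, the ligand of XCR1 from natural killer and T cells, had 11 counts in all, of which 8 fell in KO replicate 3.

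The other tested receptors overlapped between the groups. Cxcr2, the main neutrophil receptor, was at 1.18, 6.78 and 3.56 CPM in WT and 4.90, 4.78 and 5.07 CPM in KO, with a log2FC of 0.36 ± 0.52 (SE) that turned to -0.093 without WT replicate 1. Cxcr1, beside it on chromosome 1, was at 0.637 to 1.498 CPM in WT and 0.655 to 1.76 CPM in KO. Ccr1, a receptor of neutrophils and monocytes for CCL3, CCL5, CCL6 and CCL9, was at 1.59, 4.93 and 2.44 CPM in WT and 2.75, 2.94 and 1.97 CPM in KO, and its log2FC of -0.23 ± 0.43 (SE) turned to 0.32 without WT replicate 2. The effector T cell receptors Cxcr3 and Cxcr6, together with Ccr6 and Ccr9, were each below 1.5 CPM in all libraries, with log2FCs of 0.49, 0.14, 0.36 and 0.94 and standard errors of 0.57 to 0.89. Ccr3, the eosinophil receptor, had counts of 0, 9 and 0 in WT and 11, 9 and 14 in KO, and Ccr4, a receptor of T helper cells, had 18 of its 28 counts in WT replicate 2.

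**Figure D4:**
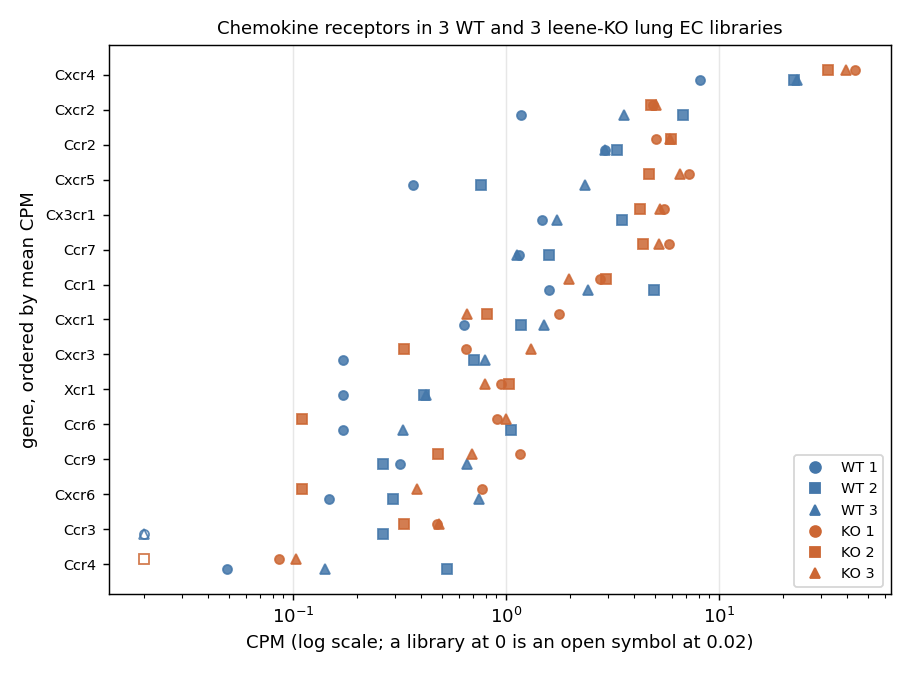
CPM (horizontal log axis) of 15 of the 16 chemokine receptors in each WT (blue) and KO (orange) library, ordered by mean CPM, with circles, squares and triangles for replicates 1, 2 and 3 and open symbols at 0.02 for libraries at 0. In Cxcr4, Ccr2, Cxcr5, Cx3cr1, Ccr7, Xcr1 and Ccr3 every KO library lies to the right of every WT library.

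Some receptors are encoded side by side. Cxcr1 and Cxcr2 are neighbours on chromosome 1. A second group, Ccr9, Cxcr6, Xcr1, Ccr1, Ccr3 and Ccr2, lies on chromosome 9 from 123678439 to 124113557 (GRCm38), and of its 5 tested genes 4 had a positive log2FC, from -0.23 for Ccr1 to 1.49 for Xcr1. Ccr7 and Cxcr5 lie outside both. In all, 30 of the members lay in 8 clusters of genes no more than 500 kb apart.

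Among ligands, Cxcl15 outweighed all others. This lung epithelial neutrophil attractant took 64.5% to 90.9% of the ligand RPKM of a library, at 493, 5084 and 1478 CPM in WT and 3622, 4677 and 3934 CPM in KO. The lowest libraries were WT replicates 1 and 3 and the highest was WT replicate 2, as for the alveolar type II marker sum given above. The log2FC of 0.79 ± 0.73 (SE, adjusted p = 0.701 in the quasi-likelihood test) was 2.02 without WT replicate 2 and 0.31 without WT replicate 1. Cxcl17, a mucosal chemokine of airway epithelium, was at 24.04, 67.3 and 33.5 CPM in WT and 66.9, 78.5 and 51.1 CPM in KO. As with Cxcl15, WT replicates 1 and 3 were the lowest libraries. The Cxcl17 log2FC of 0.65 ± 0.36 (SE) became 1.16 without WT replicate 2 and 0.37 without WT replicate 1. Its adjusted p in the quasi-likelihood test was 0.0359 without WT replicate 2 and 0.702 to 0.843 without each other library. The part of alveolar type II RNA in the levels of Cxcl15 and Cxcl17 was not tested.

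Ccl6, a CC chemokine of macrophages and neutrophils, came after Cxcl15 and Cxcl17 by RPKM, at 74.1, 128 and 132 CPM in WT and 124, 61.9 and 49.1 CPM in KO. WT replicate 1 and KO replicates 2 and 3 were low, and these were also the 3 libraries with the lowest macrophage and monocyte marker sum (156, 228 and 243 CPM, against 354 to 500 CPM in the others). Its log2FC was -0.51 ± 0.37 (SE, adjusted p = 0.637 in the quasi-likelihood test), and moved to -1.02 without KO replicate 1 and to -0.26 without KO replicate 3. The part of macrophage RNA in this level was not tested. Cxcl16, the second membrane-tethered ligand and the partner of CXCR6, was at 17.9 to 30.2 CPM in WT and 24.5 to 27.9 CPM in KO, with a log2FC of 0.16 ± 0.20 (SE).

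Cxcl5 was the only tested member below WT in all KO libraries. This neutrophil attractant of epithelium and platelets, a ligand of CXCR2, was at 4.75, 8.37 and 5.39 CPM in WT and 4.08, 2.32 and 1.24 CPM in KO. KO replicate 1 came within 1 CPM of WT replicate 1, and KO replicate 3 was the lowest. The log2FC was -1.29 ± 0.43 (SE, adjusted p = 0.394 in the quasi-likelihood test), and -0.95 without KO replicate 3. Neutrophil markers summed to 572 to 1698 CPM in WT and 818 to 1514 CPM in KO. This sum mostly follows 1 gene, Ltf, at 540 to 1613 CPM in WT and 757 to 1458 CPM in KO. S100a9 came next, with at most 28.1 CPM in a library, and Ly6g had 14 counts in all. Of 10 tested markers 3 were higher at an unadjusted p under 0.05 (Mmp9, Camp and Ngp).

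Beside Cxcl5 on chromosome 5 lie Cxcl3, Cxcl15, Cxcl1 and Cxcl2, in a cluster from 90759360 to 90905938. Cxcl1, Cxcl2 and Cxcl3 encode neutrophil attractants that act on CXCR2 and are induced within hours through NF-kappaB. Cxcl2 and Cxcl3 were close to 0 in most libraries and high in 1. Cxcl1 was highest in the same library, but had 4 to 22 counts in the others. WT replicate 2 held 105 of 119 counts of Cxcl2, 73 of 86 of Cxcl3 and 57 of 115 of Cxcl1. The same library held 151 of 166 counts of Ccl4 and 104 of 132 of Ccl3, a pair of macrophage chemokines, whereas no other library exceeded 12 counts of either. Only Cxcl1 of these 5 had enough counts in 3 libraries to be tested, with a log2FC of -0.57 ± 0.89 (SE).

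These 3 CXC genes share an element in their promoters, which are shown for that reason. The sequences are those of RefSeq on GRCm38.p6, from 250 bases before to 50 bases after the start of transcription, 5′ to 3′ in the direction of transcription. Capitals mark matches to the NF-kappaB motif GGGNNNTTCC on either strand, its reverse complement being GGAANNNCCC.
Cxcl1, chr5:90890995-90891294, plus strand: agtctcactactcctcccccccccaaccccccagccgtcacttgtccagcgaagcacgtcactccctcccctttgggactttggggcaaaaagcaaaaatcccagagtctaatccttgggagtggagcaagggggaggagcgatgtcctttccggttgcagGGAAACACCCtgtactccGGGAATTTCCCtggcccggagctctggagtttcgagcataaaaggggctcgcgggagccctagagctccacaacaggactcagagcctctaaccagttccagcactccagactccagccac
Cxcl2, chr5:90903649-90903948, plus strand: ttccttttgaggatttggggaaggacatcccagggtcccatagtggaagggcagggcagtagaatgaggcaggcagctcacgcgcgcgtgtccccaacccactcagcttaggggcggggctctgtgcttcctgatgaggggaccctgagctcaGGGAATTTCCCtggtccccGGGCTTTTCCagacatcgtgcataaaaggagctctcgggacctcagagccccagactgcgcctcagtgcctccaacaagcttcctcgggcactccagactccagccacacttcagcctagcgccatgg
Cxcl3, chr5:90785851-90786150, plus strand: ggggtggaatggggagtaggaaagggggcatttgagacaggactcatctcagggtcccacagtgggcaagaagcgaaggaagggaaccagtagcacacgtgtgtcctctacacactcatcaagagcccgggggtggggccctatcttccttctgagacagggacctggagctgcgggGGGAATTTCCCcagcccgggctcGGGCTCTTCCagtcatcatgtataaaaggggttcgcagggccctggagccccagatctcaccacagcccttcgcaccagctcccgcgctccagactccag
Each promoter held 3 matches, of which 2 overlapped on opposite strands within 1 run of 11 bases. Of the 49 members, 37 had a promoter in the reference, and 8 of their 41 promoters held the motif (19.5%), beside 1825 of all 32851 promoters (5.56%). The others were Ccl20, Cxcl10, Ccl9, Ccr3 and Ccr6. A match is a run of letters and was not examined as a binding site.

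**Figure D5:**
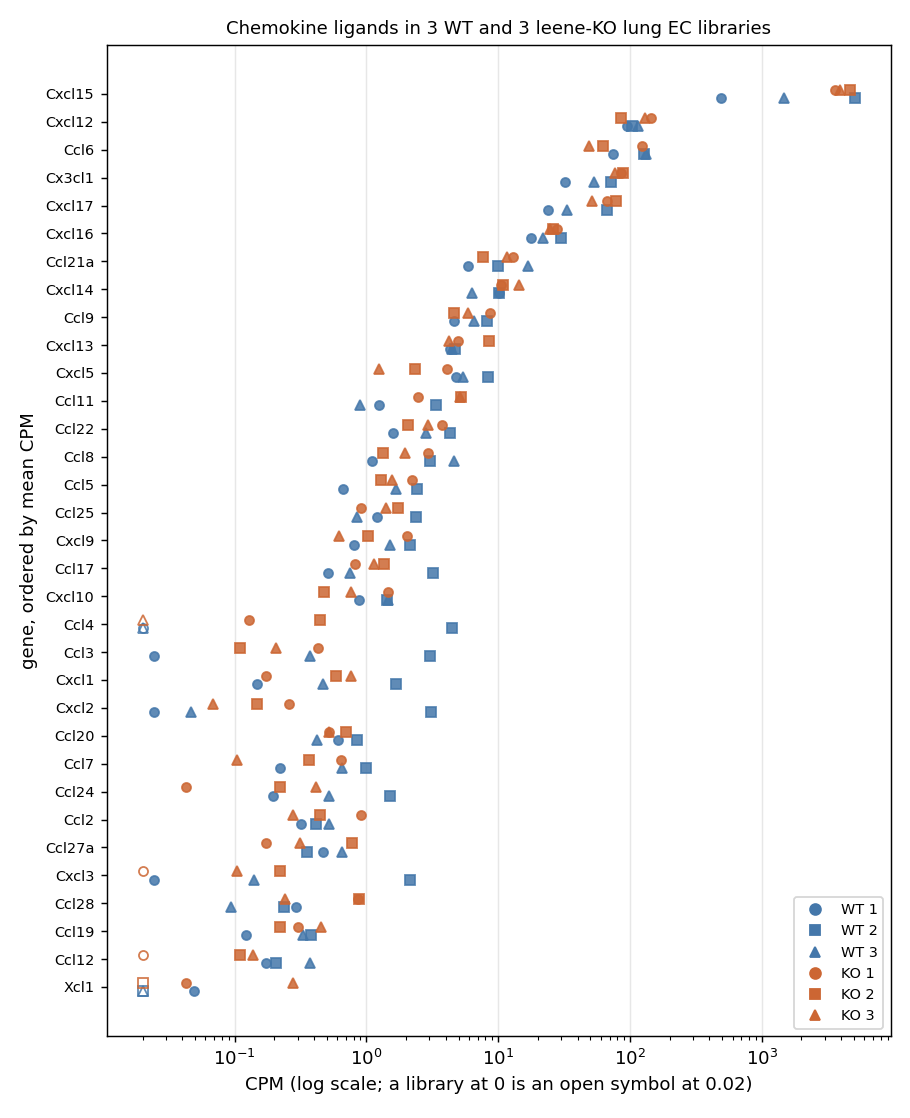
CPM (horizontal log axis) of the 33 chemokine ligands in each WT (blue) and KO (orange) library, ordered by mean CPM, with circles, squares and triangles for replicates 1, 2 and 3 and open symbols at 0.02 for libraries at 0. Cxcl15 stands far to the right at 493 to 5084 CPM, Cxcl5 is lower in every KO library, and the blue squares of WT replicate 2 stand far to the right in Ccl3, Ccl4, Cxcl2 and Cxcl3.

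Other inflammatory ligands were low and overlapped between the groups. Of 11 tested inflammatory CC ligands, 0 had an unadjusted p under 0.05 in the quasi-likelihood test or an adjusted p under 0.05 in DESeq2, and their log2FCs ran from -1.65 for Ccl24 to 1.20 for Ccl11. Ccl11, the eosinophil attractant eotaxin, was at 1.25, 3.38 and 0.890 CPM in WT and 2.45, 5.22 and 5.14 CPM in KO, and Ccl24, which acts on the same receptor CCR3, at 0.196, 1.498 and 0.515 CPM and 0.0430, 0.221 and 0.414 CPM. Ccl11 passed the quasi-likelihood test at an adjusted p under 0.05 without WT replicate 2, its highest WT library. The receptor gene Ccr3, not tested with all 6 libraries, passed there too. It then had 0 counts in each remaining WT library and entered the test through KO alone, so no conclusion is drawn from it. The ligands thus bind 1 receptor and had opposite signs, with standard errors of 0.52 and 0.92. The interferon-inducible Cxcl9 and Cxcl10, attractants of CXCR3-bearing T cells, were at 0.808 to 2.14 CPM and 0.881 to 1.45 CPM in WT and at 0.621 to 2.02 CPM and 0.478 to 1.46 CPM in KO. Ccl17 and Ccl22, the CCR4 ligands of dendritic cells, were at 0.514 to 3.17 CPM and 1.59 to 4.29 CPM in WT and at 0.817 to 1.36 CPM and 2.06 to 3.74 CPM in KO.

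A pair of homeostatic ligands completed the named members. Ccl28, a mucosal epithelial chemokine, was at 0.294, 0.235 and 0.0937 CPM in WT and 0.860, 0.883 and 0.242 CPM in KO. KO replicate 3 lay within the WT range, counts were 2 to 24 per library, and the log2FC was 1.58 ± 0.68 (SE, adjusted p = 0.484 in the quasi-likelihood test). Its receptor Ccr10 stayed under 10 counts. Cxcl14, made by epithelium and stroma, was at 10.1, 10.1 and 6.28 CPM in WT and 10.4, 10.8 and 14.4 CPM in KO. WT replicates 1 and 2 almost touched the KO libraries, with a log2FC of 0.42 ± 0.23 (SE, adjusted p = 0.555 in the quasi-likelihood test) that was 0.21 without WT replicate 3.

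Genes around the pathway were counted from lists. Of 5 atypical receptors, Ackr4 was higher and Ackr1 lower at an unadjusted p under 0.05. Ackr1, the venular endothelial receptor that carries inflammatory chemokines across the vessel wall, was at 1.15, 1.47 and 1.41 CPM in WT and 0.688, 0.552 and 0.207 CPM in KO, and every KO library was below WT. Its log2FC was -1.48 ± 0.49 (SE, adjusted p = 0.388 in the quasi-likelihood test). Both platelet CXC chemokines were higher at an unadjusted p under 0.05. Pf4 was at 8.59, 5.93 and 6.37 CPM in WT and 14.5, 12.6 and 8.87 CPM in KO, and Ppbp at 26.2, 16.5 and 15.5 CPM and 46.8, 44.4 and 22.4 CPM. Pf4 just separated the groups, and KO replicate 3 was the lowest KO library for both. Platelet markers, which include these genes, had 4 of 8 at an unadjusted p under 0.05, with a summed level of 30.1 to 45.0 CPM in WT and 41.2 to 81.4 CPM in KO, and their part was not tested.

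Genes that carry the signal below the receptors were counted as well. Of 31 tested genes for G proteins, PI3-kinase, arrestins, receptor kinases, Rac activators and RGS proteins, 2 were higher and 1 lower at an unadjusted p under 0.05, with a median log2FC of -0.03. Rgs2 and Rgs18, which switch G proteins off, had log2FCs of 0.46 and 0.86. Gnai3, an inhibitory G protein subunit that couples chemokine receptors, was at 83.8, 82.5 and 82.7 CPM in WT and 65.1, 64.7 and 65.5 CPM in KO. The groups were clear of each other, and its log2FC of -0.35 ± 0.11 (SE) had an adjusted p of 0.383 in the quasi-likelihood test.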

How the data were processed

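Poly(A) RNA of lung ECs was sequenced from 3 WT and 3 KO libraries, grouped by the genotype in the labels. The authors deposited whole-number read counts per gene, without normalization. Per the file headers, featureCounts (Subread 2.0.0) counted uniquely aligned reads over exons of Ensembl release 84 (GRCm38, mm10) on the reverse strand, after STAR 2.5.4b alignment according to the submitters' notes. Reads shared by near-identical or overlapping genes were dropped, which lowers such copies.

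Symbols came from the annotation of the same build (47224 of 47729 genes). Counts were filtered by filterByExpr, scaled by TMM (factors 0.874 to 1.37) and tested with edgeR 4.0.16 in R 4.3.3 (glmQLFit and glmQLFTest, genotype only, Benjamini-Hochberg over 14625 genes, threshold 0.05). The study's methods name DESeq2, run here (1.42.0) as an alternative beside limma-voom (3.58.1), other scalings, no filter, a replicate block and each library left out. Scripts were tested on simulated data. Ratios per marker RNA were log2 CPM minus log2 of the summed marker CPM, with exact permutation tests.

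The members, lists and tests were chosen with earlier results of these data known. Named genes were those with an unadjusted p under 0.05 or groups without overlap, the 5 highest ligands and receptors by RPKM, Ccr7 and Cxcr5 with their ligands, and the partners of the first. Others were named by range, after their values were seen. Libraries of 24464324 to 35184063 counts leave genes near 1 CPM on few counts. No 2 libraries agreed within sampling noise (a chi-square statistic of at least 40.5 for each degree of freedom). The role of Cxcl17 was assigned after the members were found. The values of 1 member are not reported here.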

Additional observations from a re-analysis of the deposited data

How the results depend on the processing

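Of the 16 genes called over all genes tested, counts became 187 with DESeq2, 26 with limma-voom and with RLE scaling, 123 with total-count scaling, 152 without a filter and 0 with the replicate block (1776 at an unadjusted p under 0.05), and 0 to 791 with 1 library left out, 0 without each KO library and 791 without WT replicate 2. Members called, 0 in the main test, were 2 with DESeq2 (Ccr7 and Cxcr5), 1 with the option legacy set to FALSE and with RLE scaling (Ccr7), 3 with total counts (with Cxcl5), 3 without a filter (with Cxcr4), 0 with the block, and 0 to 6 with 1 library left out, the 6 (Ccl11, Ccr3, Ccr7, Cx3cl1, Cx3cr1 and Cxcl17) without WT replicate 2. Without WT replicate 2, Ccr3 had 0 counts in each remaining WT library. Members at an unadjusted p under 0.05, 9 of 40 in the main test, were 14 of 49 without a filter and 11 of 40 with the block. With 1 library left out they were 6 of 43 (without KO replicate 2) to 14 of 41 (without WT replicate 2). Over all genes tested, 1506 of 14625 were at that level in the main test, 2293 of 26138 without a filter and 1776 of 14625 with the block. Without KO replicate 2 these were 986 of 14954, and without WT replicate 2 they were 3188 of 14950. Ccr7 passed at a log2 fold change of 1.96 with DESeq2 and RLE, 1.99 with legacy set to FALSE and without a filter, and 1.83 with total counts. With 1 library left out, Ccr7 was at 1.88 to 2.13 (adjusted p 0.0213 to 0.329, past the threshold only without WT replicate 2). Cxcr5 passed at 2.42 with DESeq2, 2.44 with total counts and 2.496 without a filter (2.03 to 3.44 with 1 library left out, adjusted p 0.0612 to 0.708, not past the threshold). With the block Ccr7 was at 2.00 (adjusted p = 0.227) and Cxcr5 at 2.70 (adjusted p = 0.311). The cause was not tested. Same-numbered libraries deviated together with correlations of -0.08, 0.22 and 0.01, and the other combinations of a WT and a KO library with -0.18 to 0.19. With 3 libraries per group, these values do not settle whether the numbers pair the samples. Medians with 1 library left out were 0.54 to 1.07 for receptors and -0.28 to 0.35 for ligands, and total-count scaling moved the median of all genes from 0.03 to -0.13. Signs turned for Ccl21a (0.17 with limma-voom, 0.072 with the block, -0.31 to 0.44 with 1 library left out), Ccl2 (-0.21 to 0.70), Ccr1 (-0.55 to 0.32), Cxcr1 (-0.59 to 0.23) and Cxcr2 (-0.093 to 1.07) with 1 library left out. Of 247 values of 19 other named genes, 231 kept direction and side of the threshold, 5 passed it and 11 turned sign. Genes near 1 CPM, most receptors among them, rest on few counts and their differences are limited by depth.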
